A study of Mus musculus with 2 samples.

Results

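The miR-17-92 cluster is a run of 6 miRNA genes, Mir17, Mir18, Mir19a, Mir20a, Mir19b-1 and Mir92-1, that lie within 836 bases of mouse chromosome 14. The 6 genes were taken by name and position, not by their level, and they are 6 of 1973 annotated miRNA genes in the deposited count tables. The assay was microRNA sequencing, which counts short RNAs, on liver of healthy mouse embryos of strain B6NCrl at embryonic day 15.5. There was 1 group of 2 libraries: replicate 1 came from a pool of 78 embryos and replicate 2 from a pool of 62, with males and females pooled in each. No treatment, mutation or second condition was part of the design, so levels are described and no conditions are compared. A pool averages its embryos, and the spread between the libraries is that of pools and library making, not of single animals.

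A miRNA is cut from a hairpin in a longer transcript, and 1 or both arms of the hairpin yield a mature RNA. Bases 2 to 8 of the mature RNA, the seed, pair with target messenger RNAs and lower their stability or translation. The transcript of this cluster, Mir17hg, is activated by the transcription factor MYC, is abundant in dividing cells and is needed for normal B cell and lung development in the mouse. Known targets include the cell cycle regulators E2f1 and Cdkn1a for the miR-17 seed and Bcl2l11, a promoter of cell death, for several members. At this stage the fetal liver holds dividing hepatoblasts and is the main site of blood formation. In whole tissue, more cells of a type and more RNA per cell cannot be told apart.

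The main arms are shown because their seeds sort the 6 genes into 4 families. All sequences are those of RefSeq on GRCm38.p6, written 5′ to 3′, with the seed in capitals. All 6 genes matched the RefSeq table by symbol. The miR-17 family has 2 members here, and miR-18a forms a family of its own whose seed differs from theirs at 1 base.
miR-17-5p: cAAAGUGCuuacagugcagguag
miR-20a-5p: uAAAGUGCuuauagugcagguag
miR-18a-5p: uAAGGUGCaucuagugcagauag
The miR-19 family also has 2 members, and miR-92a is the fourth family.
miR-19a-3p: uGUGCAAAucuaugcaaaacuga
miR-19b-3p: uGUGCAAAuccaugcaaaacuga
miR-92a-3p: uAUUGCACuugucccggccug
With positions counted from 1 at the 5′ end, miR-17-5p and miR-20a-5p differ by C1U and C12U, both outside the seed. The miR-19 arms differ by U11C alone. From miR-17-5p to miR-18a-5p there are 6 substitutions, of which A4G lies in the seed. The share of G and C bases was lowest in miR-19a-3p, at 34.8%, and highest in miR-92a-3p, at 57.1%, while miR-17-5p, miR-18a-5p, miR-20a-5p and miR-19b-3p lay at 47.8%, 43.5%, 39.1% and 39.1%.

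Copies in other annotated hairpins limit what can be counted at 2 of the genes, and copies outside such hairpins were not searched. Over all 1058 genes with a mature arm in the RefSeq table, 96 (9.07%) had an arm in more than 1 hairpin. Of 11 arms that RefSeq lists for the cluster, 9 were found in 1 hairpin of the RefSeq table. The other 2, miR-19b-3p and miR-92a-3p, are the main arms of Mir19b-1 and Mir92-1 and were each found in a second hairpin, Mir19b-2 and Mir92-2 of the miR-106a-363 cluster on chromosome X. The 4 hairpins are shown with the longest run of bases that each pair shares in capitals.
Mir19b-1: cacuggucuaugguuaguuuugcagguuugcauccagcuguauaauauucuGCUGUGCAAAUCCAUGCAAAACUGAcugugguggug
Mir19b-2: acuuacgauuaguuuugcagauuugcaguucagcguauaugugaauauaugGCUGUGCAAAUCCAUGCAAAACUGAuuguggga
Mir92-1: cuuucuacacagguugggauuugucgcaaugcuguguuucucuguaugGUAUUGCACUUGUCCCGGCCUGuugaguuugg
Mir92-2: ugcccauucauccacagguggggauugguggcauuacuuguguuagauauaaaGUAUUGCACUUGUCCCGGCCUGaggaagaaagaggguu
Mir19b-1 lies at chr14:115044305-115044391 on the plus strand and Mir19b-2 at chrX:52741983-52742066 on the minus strand. Mir92-1 lies at chr14:115044427-115044506 on the plus strand and Mir92-2 at chrX:52741838-52741928 on the minus strand. The shared run is 25 bases at the Mir19b pair and 22 bases at the Mir92 pair. It holds the whole arm and ends at the arm's last base in both, so a read that stays inside it matches either hairpin, and a read that runs past that end on the hairpin matches 1 of them. Reads that mapped to several places are listed apart in the tables and belong to no gene. They numbered 4302465 in replicate 1 and 2632729 in replicate 2. How many of them came from these arms was not tested. The other arms, which tell the copies apart, are shown with the seed in capitals.
miR-19b-1-5p: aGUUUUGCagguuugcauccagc
miR-19b-2-5p: aGUUUUGCagauuugcaguucagc
miR-92a-1-5p: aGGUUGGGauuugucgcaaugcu
miR-92a-2-5p: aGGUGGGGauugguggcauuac

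All 6 genes lie on the plus strand in exon 2 of the long noncoding RNA gene Mir17hg, which spans 115042879 to 115046727 of chromosome 14 (GRCm38). Mir17 comes first, at 115043671 to 115043754, followed by Mir18 at 115043851 to 115043946 and Mir19a at 115044000 to 115044081. Mir20a lies at 115044157 to 115044263, ahead of Mir19b-1 and Mir92-1. The gaps between neighbouring hairpins, from Mir17 to Mir92-1, are 96, 53, 75, 41 and 35 bases. The values below are counts on the gene's own strand. They are also given as CPM, counts scaled to a library total of 1000000, where the total is the library's same-strand miRNA counts, 5529166 in replicate 1 and 3169882 in replicate 2. No reads were assigned to the opposite strand of the 6 genes, 0 counts in each library. By the usual limit of 3 counts where none is seen, opposite-strand levels of up to 0.543 CPM (replicate 1) and 0.946 CPM (replicate 2) per gene would have gone unseen.

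The 6 genes lie in the same exon, and their levels differed widely. Mir17 and Mir20a, which carry the miR-17 seed, were the highest. Mir17 had 174956 counts in replicate 1 and 106436 in replicate 2, or 31642 and 33577 CPM. Mir20a had 78042 and 49354 counts, or 14115 and 15570 CPM. In each library Mir17 was a little over 2 times as high as Mir20a, with ratios of 2.24 in replicate 1 and 2.16 in replicate 2.

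Mir18 and Mir92-1 formed the middle. Mir18, whose mature miRNA is known to target connective tissue growth factor, had 28033 counts in replicate 1 and 17521 in replicate 2, or 5070 and 5527 CPM. Mir92-1, whose mature miRNA is known to target integrin alpha 5 in endothelial cells, had 22717 and 14056 counts, or 4109 and 4434 CPM. Mir18 stood at 1.24 times Mir92-1 on average (1.23 in replicate 1 and 1.25 in replicate 2). The level of Mir92-1 is uncertain, because its main arm is shared with Mir92-2.

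The miR-19 pair was far lower. Mir19a had 400 counts in replicate 1 and 274 in replicate 2, or 72.3 and 86.4 CPM. Mir19b-1 had 88 and 59 counts, or 15.9 and 18.6 CPM. Mir92-1, the next gene up, was 54.0 ± 3.88 times as high as Mir19a, and Mir17 was 413 ± 34.6 times as high (SD, n = 2 each). The arm of Mir19b-1 that carries the seed is the shared one, so its level is uncertain in the same way as that of Mir92-1. The main arm of Mir19a was found in its own hairpin alone, with U11C between it and miR-19b-3p. Whether reads with a mismatch moved between the miR-19 genes, or the ends and base content of miR-19 bear on capture in the library, was not tested.

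**Figure D1:**
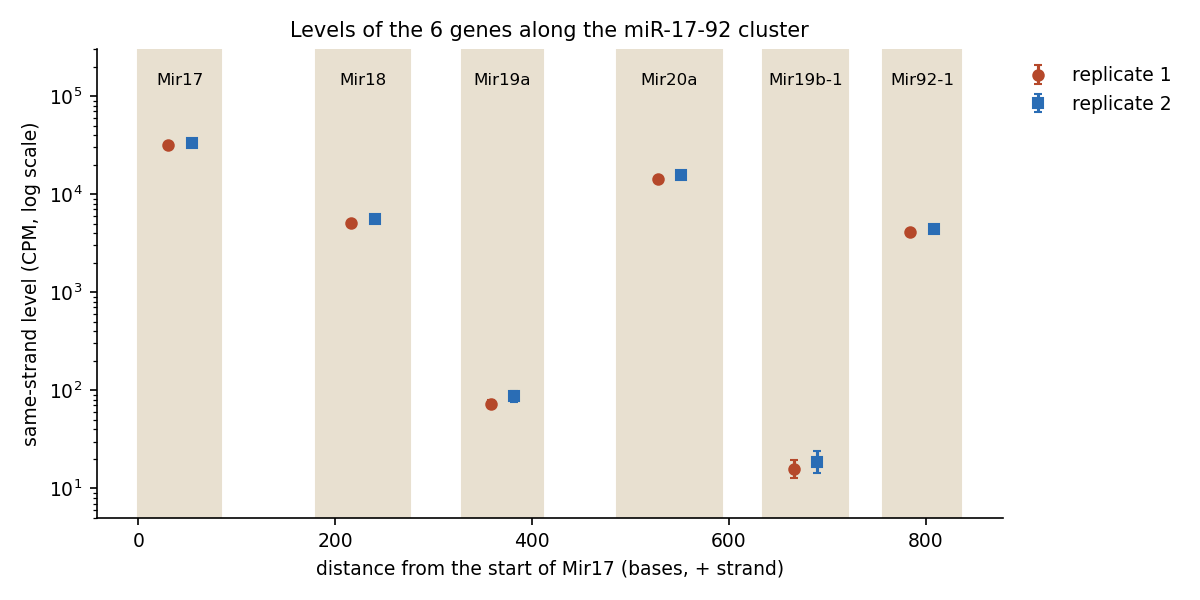
Same-strand level in CPM (log scale) of each gene against distance in bases from the start of Mir17, with shaded bands for the annotated genes, circles for replicate 1 and squares for replicate 2. Bars are exact 95% intervals of counting error. The libraries lie close together at every gene, while Mir19a (72.3 and 86.4 CPM) and Mir19b-1 (15.9 and 18.6 CPM) lie far below their neighbours Mir18, Mir20a and Mir92-1.

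The order was Mir17, Mir20a, Mir18, Mir92-1, Mir19a and Mir19b-1 in both libraries. It does not follow position along the transcript, since Mir19a and Mir19b-1 lie on either side of Mir20a. Means were 32610 ± 1368, 14842 ± 1029, 5299 ± 323, 4271 ± 230, 79.4 ± 9.97 and 17.3 ± 1.91 CPM in that order (SD, n = 2 each). The ranges of the 2 libraries did not overlap for any of the 5 neighbouring pairs in this order, or for any of the 15 pairs of members. Over all pairs of genes with at least 10 counts in both libraries, 95.1% did not overlap, so separation of that kind was usual in these tables. Mature arms are of nearly equal length here, 21 bases for miR-92a-3p and 23 for the other main arms, and a read can hold a whole arm. Per 100 bases of annotated gene, which range in length between 80 and 107 bases, the order of the 6 was the same. On that scale the ranges of Mir18 and Mir92-1 overlapped, at 5281 and 5758 against 5136 and 5543 CPM per 100 bases. By their ranges they did not differ beyond their spread, although Mir18 was the higher within each library.

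As a share of the cluster's own assigned counts, which needs no library scaling, the composition was steady between the libraries. Reads that mapped to several places are not in these counts. How far this bears on the shares, above all of Mir92-1 and Mir19b-1, was not tested. The cluster held 304236 counts in replicate 1 and 187700 in replicate 2. Mir17 made up 57.5% of them in replicate 1 (exact Clopper-Pearson 95% interval 57.3 to 57.7) and 56.7% in replicate 2 (56.5 to 56.9). Mir20a made up 25.7% (25.5 to 25.8) and 26.3% (26.1 to 26.5). For these 2 genes the intervals did not overlap, and the differences between libraries were under 1 percentage point. Mir18 held 9.21% and 9.33%, Mir92-1 7.47% and 7.49%, Mir19a 0.131% and 0.146%, and Mir19b-1 0.0289% and 0.0314%, and for each of these 4 the intervals of the libraries overlapped. Intervals cover counting error only, as PCR copies were not told apart by molecular identifiers.

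The cluster as a whole took 5.50% of same-strand miRNA counts in replicate 1, with an exact 95% interval of 5.48 to 5.52, and 5.92% in replicate 2, with an interval of 5.90 to 5.95. By mean CPM, Mir17 ranked 6 of all genes, Mir20a 20, Mir18 42 and Mir92-1 49, while Mir19a ranked 196 and Mir19b-1 259. All 6 passed the minimum of 10 counts in both libraries, as did 352 of the 1973 genes.

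Few of the genes next to the members in this ranking were separated from them. Of 12 neighbours, the gene next above and next below each member, 2 did not overlap with it, against 7.98% of neighbouring pairs over all detected genes. Both were neighbours of Mir17. Mir335, in the imprinted gene Mest, was above it at 33894 and 41467 CPM, while below it Mir411, also imprinted, had 27425 and 26361 CPM. Mir20a lay between Mir93 and Mir451a, a red cell miRNA whose libraries were far apart at 18658 and 8843 CPM. Mir18 lay between Mir30d and Mir381, and Mir92-1 between Mir151 and Mir1193. Mir19a lay between Mir103-2 and Mir30c-2, and Mir19b-1 between Mir199a-2 and Mir133b. Nearest to Mir17 by Euclidean distance of log2(CPM + 1) over the 2 libraries were Mir335 (0.32), Mir411 (0.41) and Mirlet7i (0.55). With 2 libraries this measures likeness of level and little else.

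**Figure D2:**
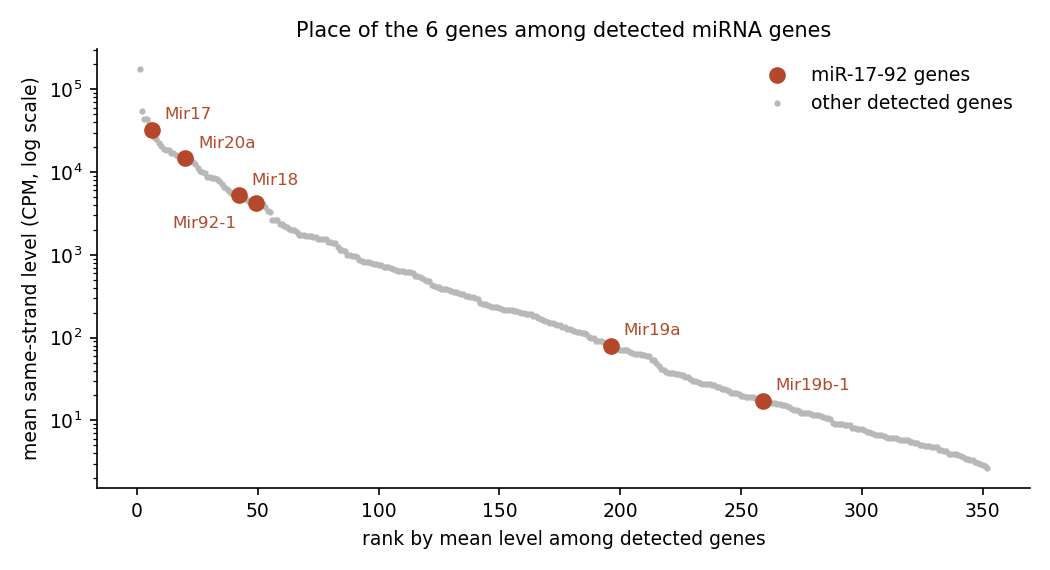
Mean same-strand level in CPM (log scale) against rank, for the 352 genes with at least 10 counts in both libraries, with the 6 genes of the cluster as large labelled points. Mir17 ranks 6, Mir20a, Mir18 and Mir92-1 lie between ranks 20 and 49, and Mir19a (196) and Mir19b-1 (259) lie in the lower part of the curve.

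The same seeds are carried by genes elsewhere, most of them in the paralogous clusters miR-106b-25 (Mir106b, Mir93 and Mir25, within Mcm7 on chromosome 5) and miR-106a-363 (Mir106a, Mir18b, Mir20b, Mir19b-2, Mir92-2 and Mir363 on chromosome X). Mcm7 encodes a subunit of the replicative helicase. By summed counts, miR-17-92 was 2.37 ± 0.0502 times as high as miR-106b-25 (2.34 in replicate 1 and 2.41 in replicate 2) and 86.2 ± 3.48 times as high as miR-106a-363 (88.7 and 83.8). In CPM the sums were 57119 ± 2963 for miR-17-92, 24071 ± 740 for miR-106b-25 and 664 ± 61.1 for miR-106a-363 (SD, n = 2 each). These ratios were not tested. In CPM the ranges of the 3 clusters over the libraries did not overlap, as was so for 95.1% of all pairs of detected genes.

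Counts are per gene and do not tell the arms of a hairpin apart, so family values are sums over genes that carry a seed. Genes with the miR-17 seed had the highest sum of the 4 families. Mir17 and Mir20a together had 45757 CPM in replicate 1 and 49147 in replicate 2, against 23094 and 24232 CPM for the other genes with that seed, so the cluster held 66.5% and 67.0% of the family. Mir17 was 2.08 and 2.12 times as high as Mir93, the highest of the others, which stood at 15527 ± 447 CPM. Mir20a was 0.928 and 0.983 times as high as Mir93, and their ranges overlapped. Mir17 was 4.18 times as high as Mir106b in replicate 1 and 4.19 times in replicate 2, and 166 and 144 times as high as Mir106a, from which its mature arm differs by U10A. Mir20a was 110 times as high as Mir20b in each library. Mir6383 has the seed too and had 0 counts in both libraries.

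For the miR-18 seed, the cluster was the source of 99.7% of the family's counts in each library. Mir18 stood at 5070 and 5527 CPM, against 13.7 and 15.1 CPM for Mir18b, a ratio of 367 ± 2.71 (SD, n = 2). The mature arms differ by A18U and A20U.

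The miR-92 seed was carried by 7 genes, of which 6 were detected, as for the miR-17 seed. Mir92-1 held 75.0% of the family in replicate 1 and 77.2% in replicate 2, against 1367 and 1309 CPM over the other loci. These were Mir25 at 754 ± 26.2 CPM, Mir32 on chromosome 4 at 252 ± 10.8 CPM, Mir92-2 at 184 ± 8.13 CPM, Mir363 at 112 ± 7.21 CPM and Mir92b on chromosome 3 at 35.8 ± 19.8 CPM (SD, n = 2 each). Mir367 had 0 counts in both libraries. Mir92-1 was 5.32 and 6.02 times as high as Mir25, and 23.1 and 23.4 times as high as Mir92-2, with which it shares its main arm. Reads of that arm that mapped to several places are in none of these values.

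For the miR-19 seed, Mir19a and Mir19b-1 together had 88.3 CPM in replicate 1 and 105 in replicate 2, and Mir19b-2 had 3.62 and 11.99 CPM. The cluster held 96.1% of that family in replicate 1 and 89.8% in replicate 2. Mir19b-1 was 4.40 times as high as Mir19b-2 in replicate 1 and 1.55 times in replicate 2, a ratio that rests on 20 and 38 counts of Mir19b-2 and was not stable. This family had the lowest summed CPM of the 4. Reads that mapped to several places are not in these sums, and Mir19b-1 and Mir19b-2 share the arm with the seed. How far this bears on the family's level and on the cluster's share was not tested.

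**Figure D3:**
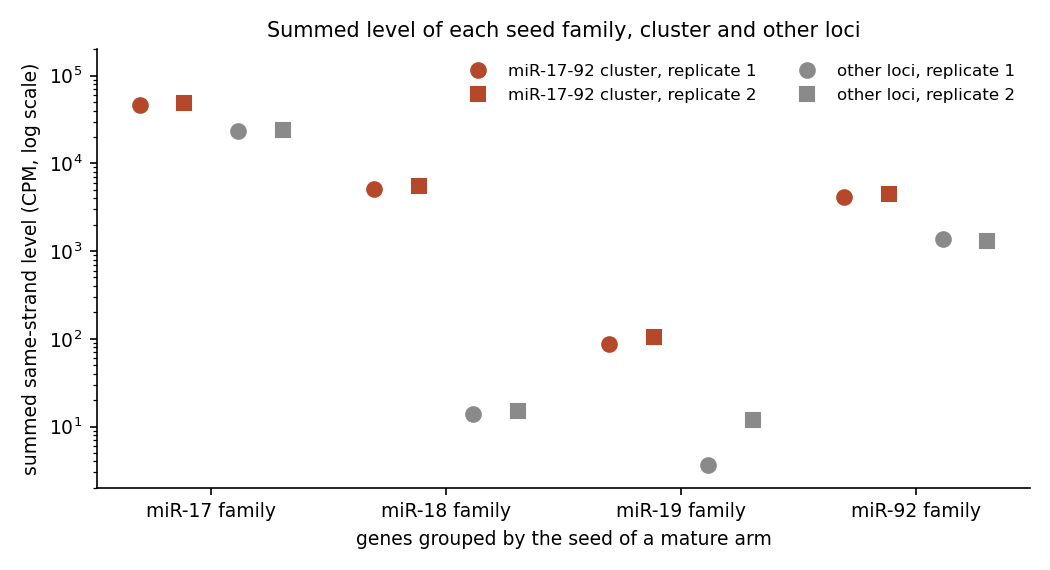
Summed same-strand level in CPM (log scale) of genes that share a main-arm seed, for the miR-17-92 cluster (left pair of points in each family) and all other loci with that seed (right pair), with circles for replicate 1 and squares for replicate 2. The cluster is above the other loci in all 4 families, and as a ratio by the least in the miR-17 family (45757 and 49147 against 23094 and 24232 CPM).

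The libraries were then compared gene by gene, as a check on how closely the pools matched. Each ratio, on the log2 scale, sets replicate 2 over replicate 1 after TMM scaling, and was tested with a two-sided exact binomial test over 456 genes that had at least 10 counts summed. The test covers counting error only and compares these 2 libraries, not conditions. Mir17 had a log2 ratio of 0.05 (95% interval 0.04 to 0.06; Benjamini-Hochberg adjusted p = 1.69e-17, exact binomial test). Mir20a had 0.11 (0.09 to 0.12; adjusted p = 1.82e-35, exact binomial test). Mir18 had 0.09 (adjusted p = 1.81e-09) and Mir92-1 0.07 (adjusted p = 1.13e-05), by the same exact test.

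Mir19a, at 0.22 (-0.01 to 0.45; adjusted p = 0.122), and Mir19b-1, at 0.19 (-0.31 to 0.68; adjusted p = 0.597), did not pass the exact test. At their depth both intervals included 0, so differences of that size could not be told from none. So 4 of 6 members were higher in replicate 2 and 0 lower, while over all genes tested 39.0% differed and 18.2% were higher in replicate 2. Among the 187 genes that averaged 100 CPM or more, 116 differed, 53 higher and 63 lower in replicate 2, and with total counts as library sizes these were 64 higher and 53 lower. The 4 members called lie above that level and the 2 not called below it.

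The size of these differences was small. The median log2 ratio of the 6 was 0.10, within a range of 0.05 to 0.22, against a median of -0.03 over all genes tested. Among genes with at least 100 CPM the SD of the log2 ratios was 0.203, above the ratio of each of the 4 members called. In the paralogous clusters 4 of 9 genes were higher in replicate 2 and 1, Mir25, was lower at -0.11 (adjusted p = 0.0134, exact binomial test). With DESeq2 size factors Mir25 passed the exact test as well (log2 ratio -0.09, adjusted p = 0.0377). With total counts as library sizes it did not pass the exact test (log2 ratio -0.07, adjusted p = 0.125). Mir92-1 and Mir25, which carry the same seed, had ratios of opposite sign under each of these scalings. Mir19b-2 was the furthest of the 9, at 1.69 (0.87 to 2.55; adjusted p = 7.69e-05, exact binomial test). Outside both clusters Mir92b was lower in replicate 2, with 275 counts in replicate 1 and 69 in replicate 2, a log2 ratio of -1.23 (adjusted p = 1.04e-10, exact binomial test).

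**Figure D4:**
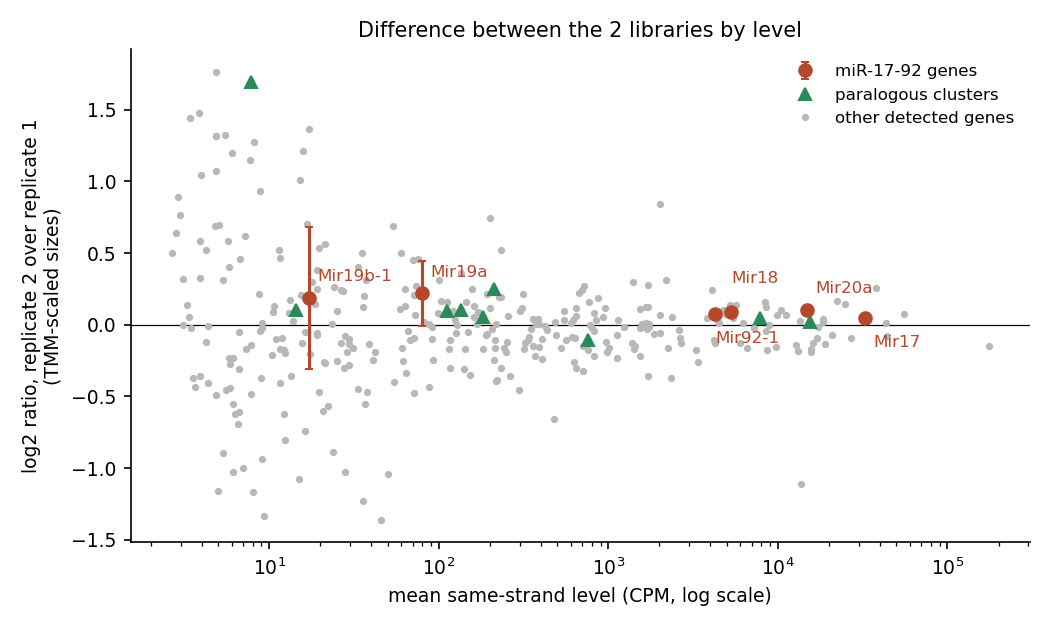
Log2 ratio of replicate 2 over replicate 1 (TMM-scaled sizes) against mean level in CPM (log scale) for the detected genes, with the 6 cluster genes as labelled circles, paralogs as triangles and other genes as small points. Bars are 95% intervals of counting error. All 6 cluster genes lie slightly above 0, at 0.05 to 0.22, and the bars of Mir19a and Mir19b-1 reach 0.

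The libraries held 14666947 and 8454226 reads in replicates 1 and 2, of which 29.3% and 31.1% mapped to several places. With total counts as library sizes, a chi-square over genes came to 68.6 per degree of freedom (455 degrees of freedom). The libraries thus differed by more than counting error, and a few genes with many counts can make up much of this value. The labelled tissue was checked on markers. The 5 hepatocyte miRNAs summed to 187323 and 173250 CPM, nearly all from Mir122, and 3 erythroid miRNAs to 27150 and 18579 CPM. Of the leukocyte list 4 of 5 genes were matched by name, at 19923 and 18634 CPM in sum. Mir142 was not matched, so any counts of it are missing from that sum and its level is not known here. Mir126a of endothelial cells stood at 44812 and 43586 CPM. Of the 3 neural miRNAs, Mir9-2 and Mir124a-1 were at 0 in both libraries and Mir137 had 66.6 and 33.1 CPM, and striated muscle miRNAs summed to 1439 and 2653 CPM. In CPM the hepatocyte, erythroid, leukocyte and neural sums and Mir126a were lower in replicate 2, and the muscle sum and the 6 cluster genes were higher. Within the erythroid list only Mir451a was lower, while Mir144, at 7777 and 8918 CPM, and Mir486, at 715 and 818 CPM, were higher in replicate 2. The leukocyte sum, without Mir142, was mostly Mir223, at 19475 and 18201 CPM. Among the 4 matched genes of that list Mir155 alone was higher in replicate 2, at 95.9 and 110 CPM. Most of the muscle sum was Mir206, at 1430 and 2628 CPM, while Mir1a-1 had 1 and 0 counts. The part of these markers in the ratios of the members was not tested.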

How the data were processed

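MicroRNA sequencing counts of 2 libraries of 1 group were used. The deposited tables hold raw read counts per annotated miRNA gene, counted by the authors on mm10 with annotation release M4, per the text deposited beside them. Neither the aligner nor the counting program is given in the sources used here. Reads mapping to several places belong to no gene. Members, lists and tests were chosen with earlier results of these data known.

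Same-strand counts were the basis. Names and positions came from GENCODE release M21 on the same assembly, which matched 1894 of 1973 identifiers, with the same version for all 15 genes of the 3 clusters. Sequences came from RefSeq (GRCm38.p6). Seeds, copies and substitutions were found by exact matching among 1005 hairpins and 1738 mature sequences. CPM used same-strand totals. TMM factors came from edgeR 4.0.16 on genes with at least 10 counts in both libraries, with size factors of DESeq2 1.42.0 as an alternative. The binomial test ran in scipy 1.17.1 over all genes with at least 10 summed counts, with Benjamini-Hochberg adjustment and a threshold of 0.05. It was tested on simulated counts that held counting error and set changes but no spread between libraries, so that check does not cover such spread. SDs are of 2 libraries. Named genes were the members, paralogs, detected genes of the same seed, neighbours in level and the 3 nearest to Mir17. Alternatives changed strand, scaling, filter, length and replicates.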

Additional observations from a re-analysis of the deposited data

How the results depend on the processing

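The cluster's share, 5.71% on average, was 5.20% with counts of both strands, 6.93% with Mir122 left out of the total and 2.15% of all reads, since each changes the denominator. The ratio to miR-106b-25, 2.37, was 2.27 per base of gene length and 2.19 without genes that have an arm in more than 1 hairpin. The ratio to miR-106a-363, 86.2, was 73.2 per base and 112 without those genes. With each replicate left out in turn the share was 5.50 to 5.92%, these ratios were 2.34 to 2.41 and 83.8 to 88.7, and 6 members were detected each time. The count of 4 members that differ between libraries was the same under 6 alternatives of strand, scaling and count minimum. So were the sign of each member's ratio and each member's call. Of the 6, TMM factors from all genes was chosen after seeing the data. A count minimum changes the adjusted p-values but cannot change a ratio. Counting both strands left the counts of the 6 genes unchanged, as they had 0 on the opposite strand. The sign was therefore open to change through scaling alone. The count of members could not be recomputed with a library left out, which leaves nothing to compare. All 6 levels were higher by more than their SD with Mir122 left out of the totals, and moved by less than it under TMM or DESeq2 scaling. Those scalings shift the libraries in opposite directions, so a mean over both could hardly move. No paired analysis was possible because there is 1 group. Depth limits Mir19a and Mir19b-1 most, and how far reads of shared arms went uncounted at Mir19b-1 and Mir92-1 was not tested.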
